A study of Mus musculus with 12 samples.

Results

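The respiratory chain genes described here were the rows of the deposited expression table whose gene names match the families Nduf, Sdha to Sdhd, Uqcr, Cox4 to Cox8 and Atp5, together with the mitochondrially encoded Nd, Co, Cytb and Atp genes. Of 32285 rows, 107 matched by name and 102 reached 1 FPKM (fragments per kilobase of transcript, scaled to the mapped fragments of the library, a level corrected for gene length) in at least 2 of the 12 libraries. They comprise 13 mitochondrial subunit genes, 81 nuclear subunit genes and 8 assembly factors named Ndufaf1 to Ndufaf8, which build complex I but are not part of it and are kept apart below. The 5 rows under that level were Cox6a2, Cox7b2, Cox8b, Cox8c and Ndufa4l2, isoforms known from other tissues, and none of them reached 1 FPKM in any library. Of the 81 nuclear subunits, 78 were at or above 1 FPKM in each of the 12 libraries. The other 3, Cox4i2, Cox6b2 and Cox7a1, passed the level through the libraries in which they were high.

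RNA came from naive CD4 T cells of C57BL/6 mice, which had been sorted out of the spleen and the lymph nodes. The Mettl3 set held 3 wild type libraries at 0 h with no treatment, 3 wild type libraries after 48 h with anti-CD3/CD28 antibodies, and 2 Mettl3-/- libraries at 0 h, numbered 1 and 3. The Nudt21 set held 2 wild type and 2 Nudt21-/- libraries, all at 0 h with no treatment. No knockout library at 48 h is analysed here. The series title names m6A modification, alternative polyadenylation and mTOR signalling. How the alleles were deleted and in which cells, the age of the mice and whether libraries came from separate animals are not given in the sources used here, so p-values measure only the spread between these libraries, which may be technical.

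The respiratory chain passes electrons from NADH (complex I) and succinate (complex II) through complex III to oxygen at complex IV, and pumps the protons that drive the ATP synthase, complex V. Mitochondrial DNA encodes the membrane core of complexes I, III, IV and V, while all of complex II and every other subunit are encoded in the nucleus, made in the cytosol and imported. Naive T cells are small resting cells, and growth after stimulation through CD3 and CD28 is known to come with an increase in mitochondrial mass. Complex I had 37 nuclear and 7 mitochondrial members here, complex II 4 nuclear members, complex III 8 and 1, complex IV 15 and 3, and complex V 17 and 2. Ndufa4, despite its name, is counted here with complex IV.

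The deleted genes matched the labels. Mettl3, the catalytic subunit of the m6A methyltransferase, stood at 5.35 and 6.45 FPKM in the Mettl3 knockouts against 25.3 to 28.7 in wild type at 0 h, and Nudt21, a cleavage factor subunit, at 7.57 and 6.69 in the Nudt21 knockouts against 18.2 and 16.9. Across genes, which are not independent, replicates had a Pearson's r of 0.9906 or more on the log2 scale, except for the 2 Mettl3 knockouts, at 0.9252. All 7 naive CD4 T cell markers were present in each library. Their sum was lower at 48 h, at 983.4 to 1069.8 FPKM against 1872.5 to 2146.2 in the Mettl3-set wild types at 0 h. Markers of other cells were uneven. The summed erythroid and platelet markers were 13.3 to 23.0 FPKM in wild type at 0 h, 0.355 to 0.773 at 48 h, 2.89 and 212 in Mettl3 knockouts 1 and 3, 277 and 210 in the Nudt21-set wild types and 416 and 390 in the Nudt21 knockouts. In the same order, the 6 myeloid markers summed to 8.75 to 10.8, 2.85 to 3.70, 4.98 and 140, 27.1 and 15.9, and 60.7 and 99.2 FPKM, and the 5 B cell markers to 188 to 219, 70.2 to 75.2, 225 and 880, 282 and 247, and 383 and 506 FPKM. The 5 CD8 T and NK cell markers summed to 12.6 to 14.1, 13.7 to 19.7, 27.8 and 121, 22.9 and 15.9, and 77.5 and 73.3 FPKM. Ppbp, Cd14, Adgre1 and Klrb1c were listed at 0 in at least 1 library. The part of these cells in the results below was not tested.

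Between 0 h and 48 h with anti-CD3/CD28 antibodies, the transcripts of the 2 genomes moved in opposite directions in wild type. No library at 48 h without the antibodies is analysed here, so stimulation and time in culture cannot be told apart. Summed over the 81 nuclear subunits, the level was 4530, 4806 and 4582 FPKM in the wild type libraries at 0 h and 7769, 8160 and 7910 FPKM at 48 h. Summed over the 13 mitochondrial genes it was 12124, 16807 and 12774 FPKM at 0 h and 7228, 7522 and 7531 FPKM at 48 h. The groups did not overlap in either sum. The ratio of the mitochondrial to the nuclear sum was 2.68, 3.50 and 2.79 at 0 h and 0.930, 0.922 and 0.952 at 48 h, so that the 48 h libraries lay close together and under every 0 h library. As a percentage of the summed FPKM of all genes, the nuclear subunits held 1.31 to 1.33 at 0 h and 2.10 to 2.18 at 48 h. The mitochondrial genes held 3.51 to 4.66 and 1.96 to 2.01. FPKM is scaled to the mapped fragments of each library, so these values give the make-up of the RNA and not its amount per cell. In bulk cells a change in the number of cells of a type and in the RNA per cell cannot be told apart.

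**Figure D1:**
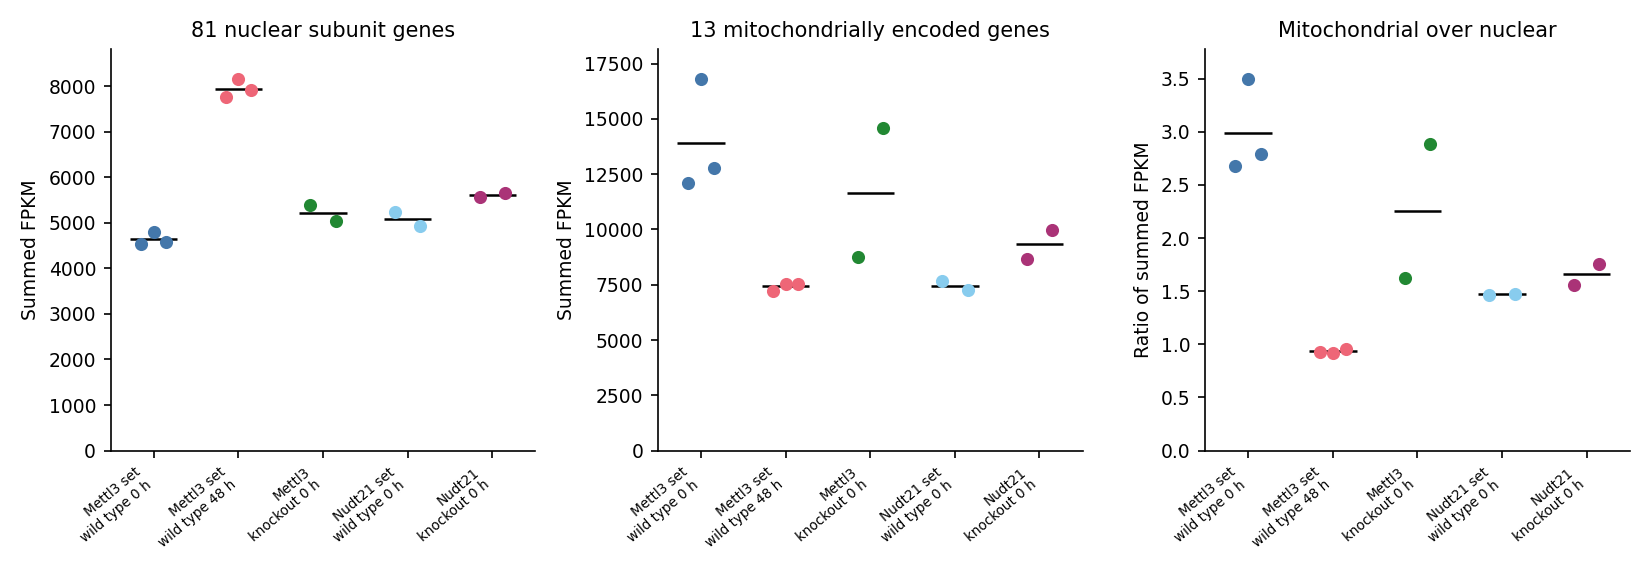
Summed FPKM of the 81 nuclear subunit genes (left) and of the 13 mitochondrially encoded genes (middle), and their ratio (right), with 1 point per library and a line at the mean of each of the 5 groups. The 48 h libraries are highest for the nuclear sum and lowest for the ratio, and the 2 Mettl3 knockouts lie far apart for the mitochondrial sum.

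In the limma fit over 12511 genes (log2 of FPKM + 1, Benjamini-Hochberg adjusted p under 0.05), 43.6% of all genes rose and 34.9% fell at 48 h, with a median log2 difference of 0.07. Of the 81 nuclear subunits 79 rose, with 1 lower and 1 not passing, and their median log2 difference was 0.84. Of the 78 at or above 1 FPKM in each library, which no group had to lift over the level, 76 rose and 1 fell, at a median of 0.82. All 13 mitochondrial genes fell, at a median of -0.91. Over the alternative settings tried, 76 to 80 nuclear subunits rose and 12 or 13 mitochondrial genes fell. Groups that did not overlap were counted too: 80 nuclear subunits had every 48 h library above every 0 h library (45.3% of all genes) and 1 had them all below, as had the 13 mitochondrial genes (37.6% of all genes). Of the nuclear members of complexes I to V, 36 of 37, 4 of 4, 8 of 8, 14 of 15 and 17 of 17 rose, with medians of 0.82, 0.73, 0.89, 0.97 and 0.80. The 14 of complex IV include the 3 low isoforms described below, and its median of 0.97 is the value of 1 of these, Cox4i2. The 11 nuclear subunits of complex IV other than these isoforms and Cox7a2l had a median of 0.84.

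**Figure D2:**
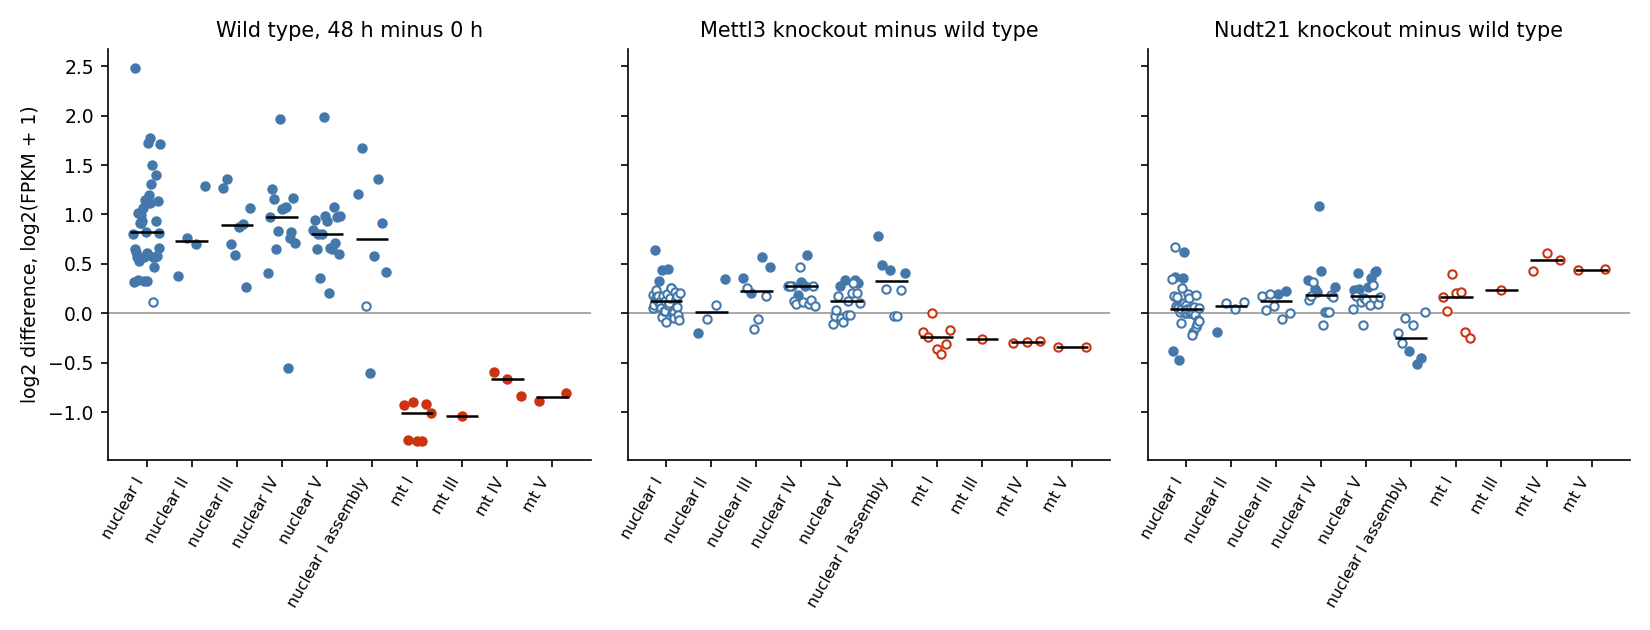
Log2 differences (log2 of FPKM + 1) of the 102 members in 3 comparisons, by complex and by genome, with nuclear genes in blue and mitochondrial genes in red. Filled points passed the test, open points did not, and lines mark medians. At 48 h the nuclear points lie above 0 except for 2, and the mitochondrial points lie below it.

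Complex I takes electrons from NADH. Its 7 nuclear core subunits, which carry the flavin and the iron-sulphur clusters, had a median log2 difference of 0.58 at 48 h, and its 30 accessory subunits, which surround the core, one of 0.92. Ndufs1, the largest core subunit, held 33.9, 37.7 and 36.2 FPKM at 0 h and 39.7, 39.0 and 38.6 at 48 h. It was the nuclear subunit that did not pass, with a log2 difference of 0.12 ± 0.07 (SE, adjusted p = 0.136), although its groups did not overlap. Ndufs8, another core subunit, rose from 31.4, 37.7 and 33.1 FPKM to 73.2, 78.7 and 75.1, a log2 difference of 1.13 ± 0.07. The core subunits Ndufs3, Ndufs7, Ndufv1 and Ndufv2 rose by 0.47 to 0.81.

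The accessory subunit Ndufa12 (chr10:94198720-94221443 in mm10, plus strand) changed most of all members. It held 7.21, 6.73 and 7.48 FPKM at 0 h and 44.7, 43.6 and 44.9 FPKM at 48 h, with a log2 difference of 2.48 ± 0.19 (adjusted p = 8.07e-07). Ndufa12 is the subunit that takes the place of the assembly factor Ndufaf2 in the finished complex, and Ndufaf2 rose as well, from 4.95, 4.17 and 5.44 FPKM to 16.2, 19.1 and 17.7 (1.68 ± 0.09). Ndufb8 followed among the accessory subunits, with 24.5, 24.7 and 24.8 FPKM at 0 h and 83.5, 84.3 and 92.1 at 48 h (1.77 ± 0.05, adjusted p = 2.76e-09). Ndufb6 and Ndufv3 rose by 1.72 and 1.71. The groups did not overlap for any of these genes.

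Complex II joins the tricarboxylic acid cycle to the chain. Its membrane anchor Sdhd rose from 31.3, 34.5 and 33.8 FPKM to 81.9, 83.1 and 82.6 (1.29 ± 0.05), and its flavoprotein Sdha from 77.3, 75.2 and 80.99 to 100.2, 102 and 103 (0.38 ± 0.04). Sdhb and Sdhc rose by 0.76 and 0.70. In complex III the Rieske protein Uqcrfs1 rose from 52.0, 53.1 and 57.1 FPKM to 103, 105 and 98.4 (0.91 ± 0.05). The small subunits Uqcr11 and Uqcr10 rose more, by 1.36 and 1.26, and the hinge protein Uqcrh, the most abundant nuclear member of complex III, by 0.26.

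Complex V holds a rotor ring of identical c subunits that 3 nuclear genes encode. Their mature proteins are known to be the same, so the genes differ in the import sequence and in their control. Atp5g1 held 13.01, 13.9 and 10.9 FPKM at 0 h and 48.7, 52.6 and 56.4 at 48 h, a log2 difference of 1.98 ± 0.08 (adjusted p = 1.91e-08). Atp5g2 and Atp5g3 started at 107 to 131 and 132 to 144 FPKM and rose by 0.99 and 0.93, so Atp5g1 remained the lowest of the 3 at both times. The catalytic F1 subunits Atp5a1 and Atp5b rose by 0.85 and 0.95, and the stalk subunit Atp5h least, by 0.21.

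In complex IV, all 11 nuclear subunits other than the 3 low isoforms rose, and Cox7a2l fell. Cox5a, which with Cox4i1 is the first nuclear subunit to join the core, rose from 57.3, 60.5 and 62.1 FPKM to 144, 150 and 141 (1.26 ± 0.07). Cox4i1, the most abundant of the constitutive subunits, rose by 0.41. The isoforms known from other tissues stayed low: Cox4i2 was 0 to 0.179 FPKM at 0 h and 1.0003 to 1.203 at 48 h, Cox7a1 0.416 to 0.894 and 1.93 to 2.94, and Cox6b2 0.483 to 0.994 and 5.14 to 6.40. Cox4i2 and Cox7a1 reached the level for testing only through the 48 h libraries, so their values are a description, with log2 differences of 0.97 and 1.07. Cox6b2, which also reached 1 FPKM in resting libraries, rose by 1.96.

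Cox7a2l (chr17:83501918-83517330, minus strand), also known as SCAF1 or COX7RP, is a relative of Cox7a2. It is named as a factor that joins complexes III and IV into supercomplexes. Whether it does so in the C57BL/6 mice used here was not tested, and RNA levels do not give the amount of supercomplexes. Cox7a2l held 213, 237 and 244 FPKM at 0 h and 163, 155 and 154 at 48 h, with a log2 difference of -0.55 ± 0.08 (adjusted p = 0.000158). Its relative Cox7a2, a subunit of complex IV, went the other way, from 39.5, 42.0 and 41.1 FPKM to 85.1, 88.2 and 88.2 (1.07 ± 0.05). The ratio of Cox7a2l to Cox7a2 was thus 5.39, 5.64 and 5.93 at 0 h and 1.91, 1.76 and 1.74 at 48 h, with a wide gap between the times.

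**Figure D3:**
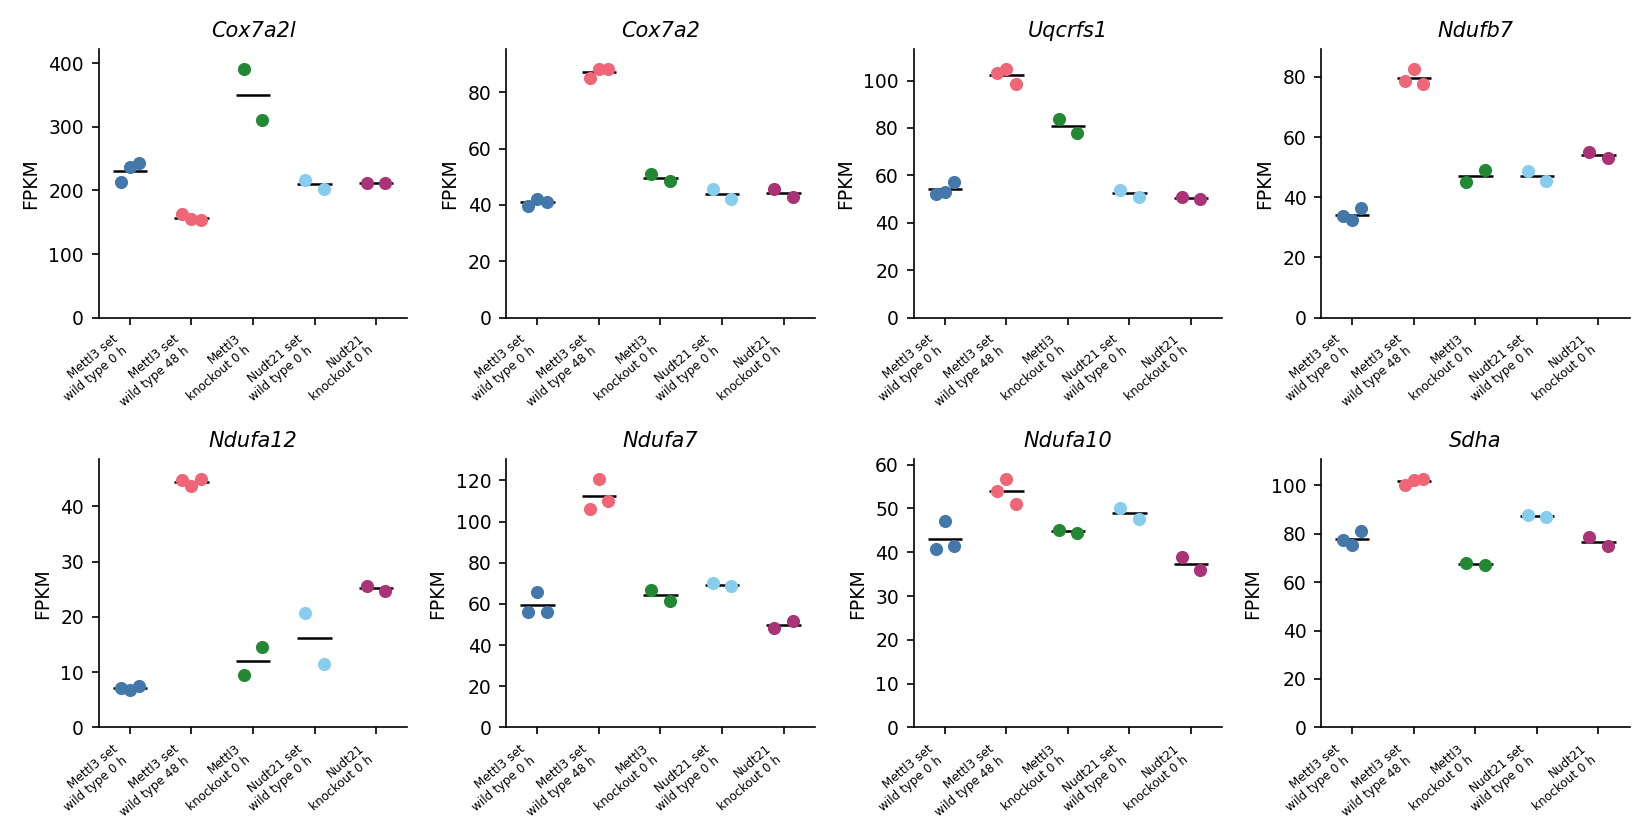
FPKM of 8 nuclear members in each of the 12 libraries, with 1 point per library and a line at the group mean. Cox7a2l is lowest at 48 h and highest in the Mettl3 knockouts, and Ndufa7 and Ndufa10 are lowest in the Nudt21 knockouts.

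Among the 8 assembly factors 6 rose at 48 h, Ndufaf4 fell and Ndufaf3 did not pass (0.08 ± 0.09), against 43.6% of all genes higher and 34.9% lower. Ndufaf1, which acts on an early membrane intermediate of complex I, rose from 5.48, 7.24 and 6.96 FPKM to 16.3, 17.2 and 15.7 (1.21 ± 0.10). Ndufaf4, a partner of Ndufaf3, held 9.79, 9.17 and 9.77 FPKM at 0 h and 5.77, 6.04 and 6.13 at 48 h (-0.60 ± 0.08, adjusted p = 7.55e-05), with no overlap.

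The promoters of 2 pairs of genes that moved in opposite directions at 48 h are shown. They are the assembly factors Ndufaf1 and Ndufaf4 and the relatives Cox7a2 and Cox7a2l. Those of Uqcr11 and Cox6a1 are added, which rose and whose stretches hold an ETS match, a motif known from nuclear respiratory genes. Each line gives the 150 bases before the RefSeq start site on the gene's strand (build GRCm38.p6), with motif letters in capitals. The letters searched on both strands were CCGGAAG (ETS), GCATGCG (NRF1), AGATGGC (YY1), GGGCGG (SP) and CACGTG (E-box). The windows are Ndufaf1 (chr2:119662835-119662984), Ndufaf4 (chr4:24897933-24898082), Cox7a2 (chr9:79759854-79760003), Cox7a2l (chr17:83514334-83514483), Uqcr11 (chr10:80406822-80406971) and Cox6a1 (chr5:115348959-115349108). Ndufaf4 lies on the plus strand and the other 5 on the minus strand.
Ndufaf1: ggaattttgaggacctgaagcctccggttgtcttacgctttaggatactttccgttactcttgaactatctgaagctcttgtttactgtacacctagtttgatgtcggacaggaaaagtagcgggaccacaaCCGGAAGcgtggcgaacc
Ndufaf4: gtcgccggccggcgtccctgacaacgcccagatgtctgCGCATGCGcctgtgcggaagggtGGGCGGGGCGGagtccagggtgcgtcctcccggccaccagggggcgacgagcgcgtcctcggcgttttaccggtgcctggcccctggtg
Cox7a2: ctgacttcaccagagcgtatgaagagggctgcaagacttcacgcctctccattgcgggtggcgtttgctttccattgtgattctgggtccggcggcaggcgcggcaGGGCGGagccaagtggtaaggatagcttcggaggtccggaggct
Cox7a2l: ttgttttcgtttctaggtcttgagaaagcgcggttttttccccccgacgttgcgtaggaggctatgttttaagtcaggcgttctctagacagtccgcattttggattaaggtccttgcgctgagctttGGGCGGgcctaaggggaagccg
Uqcr11: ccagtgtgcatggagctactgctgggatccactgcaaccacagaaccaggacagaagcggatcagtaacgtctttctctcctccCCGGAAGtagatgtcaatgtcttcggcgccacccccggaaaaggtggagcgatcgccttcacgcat
Cox6a1: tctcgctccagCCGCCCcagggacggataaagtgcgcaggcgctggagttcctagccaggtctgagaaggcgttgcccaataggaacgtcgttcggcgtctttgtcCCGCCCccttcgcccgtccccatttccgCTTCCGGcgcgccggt
Ndufaf1, which rose, and Ndufaf4, which fell, held an ETS and an NRF1 match, respectively, while the Cox7a2 and Cox7a2l stretches both held only an SP match. The CGCATGCG run of Ndufaf4 counts as 2 overlapping NRF1 matches, 1 on each strand, and its run GGGCGGGGCGG as 2 overlapping SP matches. Over the whole windows (250 bases before and 50 after the start), 68 of the 81 nuclear subunits had 73 windows. ETS letters were in 23.3% of these against 8.86% of all 32851 windows in the table, and NRF1 letters in 15.1% against 3.58%. YY1 letters were in 15.1% against 6.40%, SP letters in 39.7% against 35.7%, and E-box letters in 9.59% against 7.15%. These shares describe letters, not binding. Ndufaf5, which rose at 48 h by 0.58, held 2 NRF1 matches in its whole window.

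The 13 mitochondrial genes lie on 1 circular DNA, 12 on one strand and mt-Nd6 on the other, and are transcribed as long precursors that are then cut, so their levels after transcription can differ. All 13 fell at 48 h, with no overlap between the groups. mt-Nd4, a proton-pumping subunit of complex I, held 960, 1321 and 1005 FPKM at 0 h and 423, 470 and 435 at 48 h, a log2 difference of -1.29 ± 0.19 (adjusted p = 0.000131). mt-Co1, the catalytic subunit of complex IV and the most abundant of the 13, held 2017, 2725 and 2157 FPKM at 0 h and 1462, 1524 and 1563 at 48 h, which was the smallest fall (-0.59 ± 0.18, adjusted p = 0.0107). Its call was lost with no filter on low values (adjusted p = 0.0577) and with quantile scaling, where the log2 difference was -0.18 (adjusted p = 0.11). Median log2 differences were -1.01 for the 7 complex I genes, -0.66 for the 3 of complex IV and -0.84 for the 2 of complex V, and mt-Cytb, the core of complex III, fell by 1.03.

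**Figure D4:**
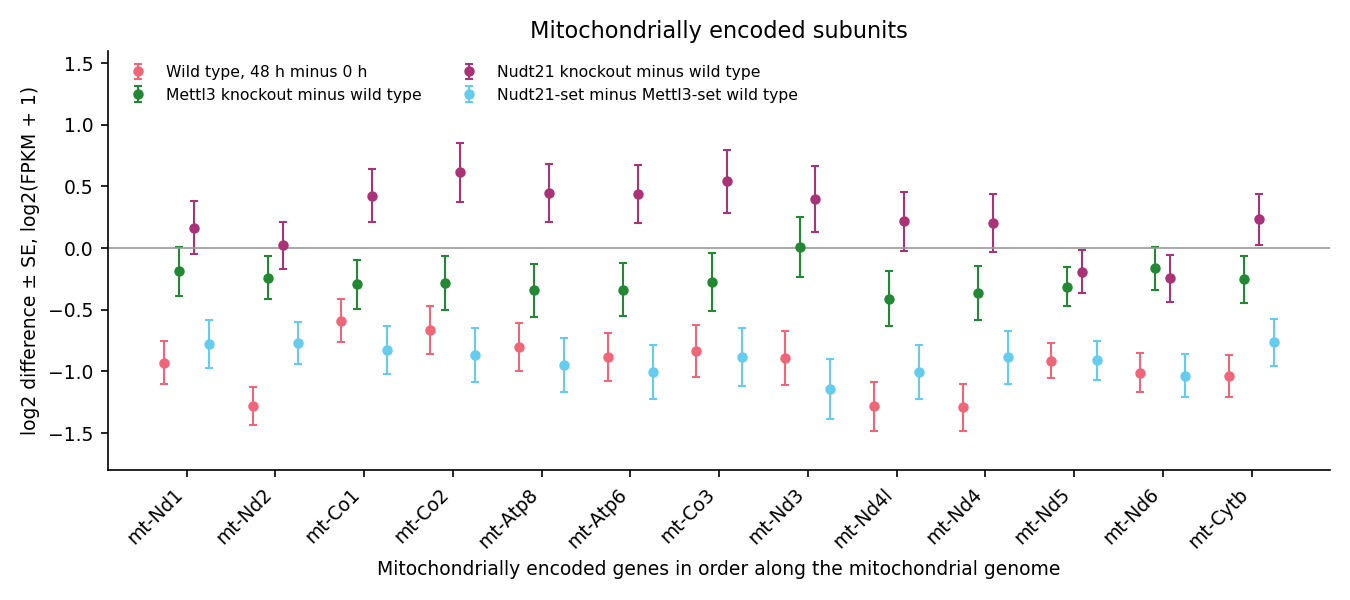
Log2 difference with its standard error (log2 of FPKM + 1) of the 13 mitochondrial genes, in their order along the mitochondrial genome, in 4 comparisons. All 13 values lie below 0 at 48 h and between the wild types of the 2 sets, while in the Nudt21 knockouts mt-Nd5 and mt-Nd6 lie below 0 and the other 11 above it.

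As a result mt-Co1 made up 16.6% ± 0.340 (SD, n = 3) of the mitochondrial sum at 0 h and 20.4% ± 0.297 (n = 3) at 48 h. mt-Nd4 made up 7.88% ± 0.0298 and 5.96% ± 0.257, and mt-Nd2 5.94% ± 0.211 and 4.52% ± 0.0522. Some neighbours overlap, so that reads in the shared bases belong to both genes, and these ends are shown with the shared bases in capitals (chrM in mm10, 5′ to 3′ on each gene's strand). They are the last 120 bases of mt-Atp8 (chrM:7850-7969, sharing 43 bases with mt-Atp6), mt-Nd4l (chrM:10054-10173, sharing 7 with mt-Nd4), mt-Nd5 (chrM:13446-13565) and mt-Nd6 (chrM:13552-13671), which meet tail to tail on opposite strands and share 14.
mt-Atp8: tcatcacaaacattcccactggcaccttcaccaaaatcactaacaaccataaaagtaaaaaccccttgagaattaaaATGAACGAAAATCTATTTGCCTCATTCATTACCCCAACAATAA
mt-Nd4l: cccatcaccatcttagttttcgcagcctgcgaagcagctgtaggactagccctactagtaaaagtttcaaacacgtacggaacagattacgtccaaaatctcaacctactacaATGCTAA
mt-Nd5: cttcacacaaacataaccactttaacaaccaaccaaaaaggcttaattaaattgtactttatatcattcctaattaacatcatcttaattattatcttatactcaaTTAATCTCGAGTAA
mt-Nd6: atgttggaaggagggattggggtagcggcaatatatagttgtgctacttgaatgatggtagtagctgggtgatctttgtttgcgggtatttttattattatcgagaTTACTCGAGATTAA
mt-Atp8 and mt-Atp6, which share a transcript, kept a ratio of 0.461 to 0.512 over the 12 libraries, and mt-Nd4l and mt-Nd4 one of 0.578 to 0.643. mt-Nd6 and mt-Nd5 had a ratio of 0.802 to 1.05. Whether counting used strand is not given in the sources used here, so reads of mt-Nd6 and antisense reads of the mt-Nd5 strand cannot be told apart.

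In the Mettl3 knockouts 16.8% of all genes rose and 12% fell against wild type at 0 h. This comparison shares its wild type libraries with the comparison of 48 h and 0 h. Of the 81 nuclear subunits 20 rose (24.7%) and 1 fell, at a median log2 difference of 0.15 against 0.04 over all genes. The 20 were 5 of 37 in complex I, 1 of 4 in complex II, 4 of 8 in complex III, 6 of 15 in complex IV and 4 of 17 in complex V. Fitted on the 5 libraries of these groups alone, 3 nuclear subunits rose, and with library weights 5.

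Uqcrfs1 (chr13:30540308-30545362, minus strand), the Rieske iron-sulphur protein that is fitted late into complex III, held 52.0, 53.1 and 57.1 FPKM with Mettl3 and 83.7 and 78.0 FPKM without it. Its log2 difference was 0.57 ± 0.06 (adjusted p = 0.000229), and it kept its call in all alternative settings tried, as did Ndufb7, Sdhd and Ndufaf1. Ndufb7, an accessory subunit of complex I, went from 33.8, 32.3 and 36.6 FPKM to 45.1 and 49.2 (0.45 ± 0.06), and Sdhd to 42.7 and 42.4 (0.35 ± 0.05). Ndufb7, Sdhd and Ndufaf1 were also higher in the Nudt21-set than in the Mettl3-set wild types, by 0.45, 0.27 and 0.53. Uqcrfs1 gave no call there. Cox7a2l went from 213, 237 and 244 FPKM to 391 and 311 (0.59 ± 0.09, adjusted p = 0.00204; 0.0563 when fitted on these groups alone), the opposite direction to that at 48 h. Cox7a2 rose from 39.5 to 42.0 FPKM to 50.9 and 48.5 (0.28 ± 0.05), and its ratio to Cox7a2l was 7.68 and 6.41 as Cox7a2l over Cox7a2.

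None of the 7 nuclear core subunits of complex I passed, their log2 differences lying between -0.06 and 0.18. Sdha, the only nuclear subunit that fell, held 77.3, 75.2 and 80.99 FPKM at 0 h in wild type, and 67.9 and 67.1 without Mettl3 (-0.20 ± 0.04, adjusted p = 0.00948). It lost its call without knockout 3, when fitted on these groups alone and with library weights. Ndufa12 held 9.48 and 14.5 FPKM against 6.73 to 7.48 (0.65 ± 0.21, adjusted p = 0.0443) and lost its call in 17 of the alternative settings. In complex III Uqcrq and Uqcr10 rose by 0.47 and 0.36, and in complex IV Cox4i1, Cox5a and Cox6c by 0.27, 0.28 and 0.32. These 5 calls were lost in 2, 2, 2, 5 and 4 alternative settings, in that order.

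Of the 8 assembly factors 4 rose, against 16.8% of all genes. The count was 2 with quantile scaling or with these groups fitted alone, and 1 with library weights. Ndufaf1 (chr2:119655446-119662827, minus strand) stood at 5.48, 7.24 and 6.96 FPKM with Mettl3 and at 11.9 FPKM in each knockout (0.78 ± 0.11, adjusted p = 0.001). Ndufaf4 went from 9.79, 9.17 and 9.77 FPKM to 12.7 and 14.1 (0.44 ± 0.09), Ndufaf2 rose by 0.49 and Ndufaf8 by 0.41. Ndufaf4, Ndufaf2 and Ndufaf8 lost their calls in 1, 3 and 6 alternative settings. In 5 of the 8 both knockouts lay above every wild type library, as in 27.4% of all genes, and in none below. Of the nuclear subunits 30 did so, and 3 lay below every wild type library (21.2% of all genes).

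The mitochondrial genes gave no call in the Mettl3 knockouts, where 12 of 13 log2 differences were negative (median -0.28). The 2 knockout libraries differed. Knockout 1 had all 13 genes below the wild type range and knockout 3 had 12 within it and 1 above it. Their mitochondrial sums were 8764 and 14569 FPKM and their ratios to the nuclear sum 1.63 and 2.89. mt-Co2, for example, held 816 and 1370 FPKM against 1147, 1616 and 1151. Without knockout 3, 11 of the 13 fell (median -0.63), and without knockout 1 none passed and the median was 0.08. Knockout 3 is also the library with the highest B cell, myeloid and CD8 T and NK cell marker sums of the 12, and the part of this in its mitochondrial level was not tested.

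In the Nudt21 knockouts 8.73% of all genes rose and 19% fell, with a median log2 difference of -0.05. Of the 81 nuclear subunits 18 rose (22.2%) and 4 fell, at a median of 0.11. The nuclear sum was 5229 and 4935 FPKM in the wild types and 5567 and 5665 in the knockouts. The summed FPKM of all genes was also higher in the knockouts, at 370735 and 386983 against 359891 and 349089. In the main fit 67 of the 81 log2 differences were positive. With every library brought to the same sum, 42 were positive and the nuclear median was 0.0161. With median-ratio scaling 71 were positive (median 0.1999), and with quantile scaling 64 (median 0.0906). The upward shift of the nuclear subunits thus depends on the scaling. Most higher calls lay in complexes IV, with 6 of 15, and V, with 7 of 17, while complex I had 3 higher and 3 lower of 37. Both knockouts lay above both wild types for 47 nuclear subunits (31.1% of all genes) and below them for 11 (44.2% of all genes). The number of higher calls depends on the libraries and the scaling. It was 10 without wild type 1, 4 without wild type 2, 9 without knockout 1, 3 without knockout 2, 10 with every library brought to the same sum, where 7 fell, and 29 with median-ratio scaling, where 2 fell. The summed markers of erythroid, myeloid, B and CD8 T and NK cells were each higher in the 2 knockouts than in the 2 wild types. The part of these cells in the calls was not tested.

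Ndufa7 (chr17:33824572-33838317, plus strand), an accessory subunit of complex I, held 70.3 and 68.6 FPKM in the Nudt21-set wild types and 48.4 and 51.5 in the knockouts (-0.47 ± 0.09, adjusted p = 0.00571), and kept its call in all alternative settings. Ndufa10, another accessory subunit, held 50.1 and 47.6 FPKM against 38.9 and 36.0 (-0.38 ± 0.08, adjusted p = 0.0078). Its call was lost without wild type 1 and without knockout 2. The core subunit Ndufs3 and Sdha fell by 0.19 and 0.18, with adjusted p of 0.0453 and 0.0221, and lost their calls in 15 and 6 alternative settings.

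Of those that rose, Ndufb2 went from 10.8 and 10.7 FPKM to 16.4 and 17.7 (0.62 ± 0.13, adjusted p = 0.00704), a call lost without knockout 2. Cox6c went from 50.01 and 51.3 FPKM to 68.5 and 68.2 (0.43 ± 0.09), a call lost without wild type 1, and Cox4i1 from 211 and 199 to 251 and 271 (0.34 ± 0.07), a call lost without wild type 2 and without knockout 2. Cox6b2, an isoform of Cox6b1 known from testis, held 1.36 and 1.14 FPKM in the wild types and 3.56 and 4.01 in the knockouts (1.09 ± 0.21, adjusted p = 0.00537) and kept its call in all alternative settings. In complex V the small membrane subunits Atp5md, Atp5l and Atp5j2 rose by 0.43, 0.42 and 0.35, and their calls were lost in 3, 5 and 2 alternative settings.

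No mitochondrial gene passed in the Nudt21 knockouts, where 11 of 13 log2 differences were positive and the median was 0.23. Both knockouts lay above both wild types for 10 of the 13 (31.1% of all genes) and below them for 2 (44.2% of all genes). With quantile scaling the median was -0.00 and 2 genes fell. With these groups fitted alone 4 rose, and with library weights 5. The mitochondrial sums were 7663 and 7268 FPKM in the wild types and 8678 and 9970 in the knockouts. The highest value was that of mt-Co2, at 733 and 677 FPKM against 956 and 1219 (0.61 ± 0.24, adjusted p = 0.0854). mt-Nd5 held 406 and 403 FPKM against 359 and 349 (-0.19 ± 0.18, adjusted p = 0.444), and mt-Nd6 343 and 350 against 304 and 281 (-0.24 ± 0.19, adjusted p = 0.369). The ratio of mt-Nd5 to mt-Co2 was 0.554 and 0.595 in these wild types and 0.376 and 0.287 in the knockouts. In the other 8 libraries it was 0.475 to 0.625, so both Nudt21 knockouts lay below every other library. mt-Nd5 made up 5.42% ± 0.175 (SD, n = 2) of the mitochondrial sum in the wild types and 3.82% ± 0.448 (n = 2) in the knockouts, and mt-Nd6 4.64% ± 0.241 and 3.16% ± 0.480. No test was run on these ratios. mt-Co2 had the highest of the 13 changes and mt-Nd5 was 1 of the 2 negative ones. The lower ratio in the knockouts than in their wild types thus follows from those values and is not separate support.

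Of the 8 assembly factors 3 fell in the Nudt21 knockouts and none rose, against 19% of all genes lower. The count was 1 without wild type 1, without wild type 2 or without knockout 2, and 2 with quantile scaling. Ndufaf6 held 5.93 and 5.63 FPKM in the wild types and 3.84 and 3.65 in the knockouts (-0.51 ± 0.07, adjusted p = 0.00147), and kept its call in all alternative settings. Ndufaf7, a methyltransferase of complex I assembly, held 8.78 and 8.61 FPKM against 6.64 and 5.62 (-0.45 ± 0.12), and Ndufaf4 11.2 and 11.1 against 9.49 and 7.32 (-0.38 ± 0.10). Each of these last 2 calls was lost in 4 alternative settings.

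The difference between the knockouts was tested directly as the Nudt21 change minus the Mettl3 change, which share no library. Over all genes this difference was positive and called for 7.44% and negative and called for 17.8%, with a median of -0.12. Of the 81 nuclear subunits 6 were called negative and 1 positive, which is under both background shares. Of the 8 assembly factors 5 were called negative, and 2 with quantile scaling. The differences were -0.98 ± 0.16 for Ndufaf1 (adjusted p = 0.00311), -0.82 ± 0.14 for Ndufaf4, -0.79 ± 0.16 for Ndufaf2, -0.68 ± 0.16 for Ndufaf7 and -0.49 ± 0.10 for Ndufaf6. Among subunits Uqcrfs1 differed by -0.63 ± 0.08 (adjusted p = 0.00139), with 53.8 and 50.9 FPKM in the Nudt21-set wild types and 51.0 and 49.9 in the Nudt21 knockouts (-0.05 ± 0.06, adjusted p = 0.559). Ndufa7 differed by -0.58, Cox7a2l by -0.58, Ndufa10 by -0.43, Cox7a2 by -0.26, Sdhd by -0.23 and Ndufb2 by 0.60. Ndufaf1, Ndufaf4, Uqcrfs1 and Ndufa7 kept this call in all alternative settings. For the mitochondrial genes none passed (median 0.57), and without Mettl3 knockout 3 there were 10 positive calls.

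A list of complex I assembly factors that includes Ndufaf1 to Ndufaf8 had 17 tested members. In the Mettl3 knockouts 5 rose (16.8% of all genes), and in the Nudt21 knockouts 7 fell (19% of all genes). Between the knockouts 10 differed, all 10 negative (17.8% of all genes). The Ndufaf genes already counted above make up 4 of the 5, 3 of the 7 and 5 of the 10. The 5 became 2 with quantile scaling or these groups fitted alone, 1 with library weights, and 3 with no filter, without Mettl3-set wild type 1 or without Mettl3 knockout 1. The 7 became 3 without either Nudt21-set wild type or without Nudt21 knockout 2. The 10 became 4 with quantile scaling, and 6 without Nudt21-set wild type 1 or without Nudt21 knockout 2. Tmem126a, which acts in the assembly of the complex I membrane arm, held 17.2 and 15.8 FPKM in the Nudt21-set wild types and 10.1 and 8.96 in the knockouts (-0.73 ± 0.07, adjusted p = 0.000259). Its Mettl3 difference was -0.06 ± 0.07 (adjusted p = 0.538).

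**Figure D5:**
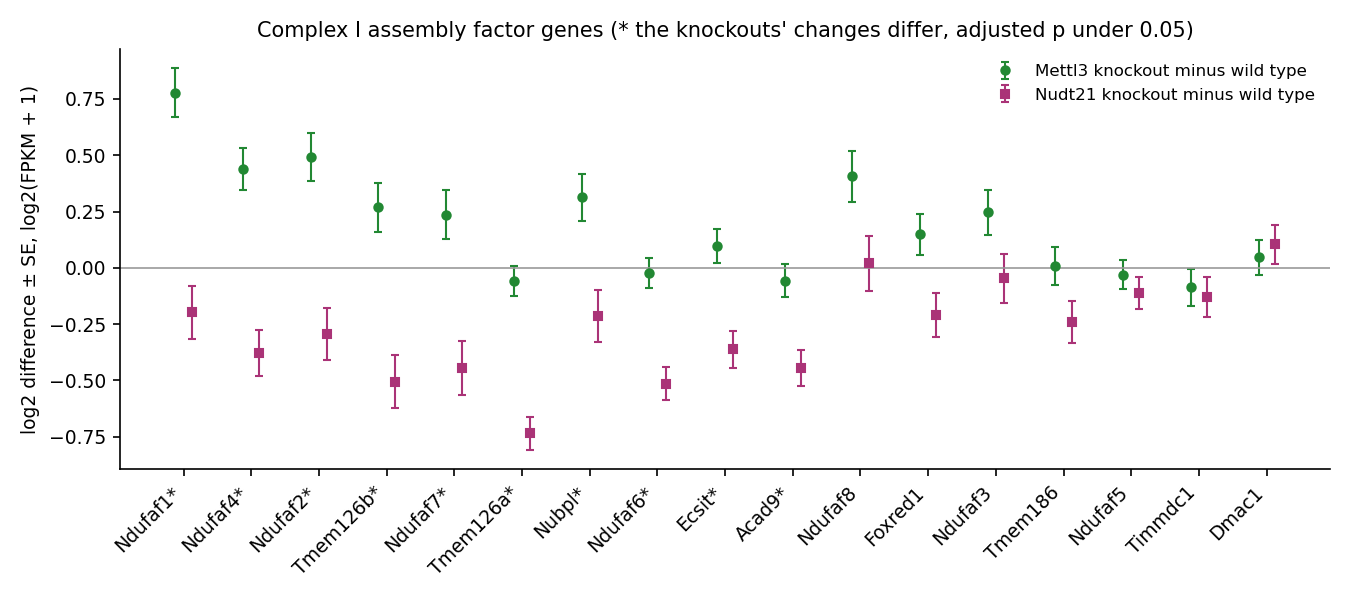
Log2 difference with its standard error (log2 of FPKM + 1) of 17 complex I assembly factor genes in each knockout against its own wild type, ordered by the difference between the knockouts. For 16 of 17 genes the Nudt21 value lies below the Mettl3 value, and stars mark the 10 for which the difference passed the test.

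The wild types of the 2 sets share their genotype label, time and cell type, and 26% of all genes differed. Of all genes, 18.7% were higher and 7.31% lower in the Nudt21 set. All 13 mitochondrial genes were lower there, at a median log2 difference of -0.89. The mitochondrial sums were 7663 and 7268 FPKM against 12124, 16807 and 12774, so the resting Nudt21-set libraries lay near the 48 h level. The call held for 2 of the 13 without either of the Nudt21-set wild types. Of the 81 nuclear subunits 30 were higher and 3 lower, and 48 had both Nudt21-set libraries above all 3 of the Mettl3 set (39.8% of all genes). Ndufb8 held 38.3 and 35.0 FPKM against 24.5, 24.7 and 24.8 (0.55 ± 0.06, adjusted p = 0.000995) and Ndufa12 20.7 and 11.5 against 6.73 to 7.48 (1.02 ± 0.21). The 2 Ndufa12 values lay far apart, and over the alternative settings its log2 difference was 0.62 to 1.42. The set and its mice, preparation or sequencing cannot be told apart, so each knockout was tested against its own wild type, and values set side by side across the sets are a description.

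Other genes of the pathway were taken from fixed lists, whose counts stand beside 43.6% of all genes higher and 34.9% lower at 48 h, 16.8% and 12% in the Mettl3 knockouts and 8.73% and 19% in the Nudt21 knockouts. The median log2 differences over all genes were 0.07, 0.04 and -0.05 in that order. Counts and values of these lists are given for the main fit only. In the Mettl3 knockouts the higher calls of nuclear subunits went from 20 to 3 with these groups fitted alone and to 5 with library weights. Of 20 electron carriers and genes of ubiquinone synthesis, 16 rose and 1 fell at 48 h, against 1 and 2 in the Mettl3 and 0 and 5 in the Nudt21 knockouts, with list medians of 0.65, 0.07 and -0.16. The Nudt21 count is near the share of all genes. Coq7, a ubiquinone hydroxylase, rose from 2.956 to 3.001 FPKM to 15.99 to 16.7 (2.13 ± 0.07), cytochrome c, Cycs, by 0.77, and the complex III subunit cytochrome c1, Cyc1, which the name patterns do not cover, by 0.69. Coq2, an earlier enzyme of that synthesis, held 30.6 and 31.8 FPKM in the Nudt21-set wild types and 20.5 and 18.4 in the knockouts (-0.65 ± 0.07). Gpd2, the glycerol phosphate dehydrogenase that feeds electrons to ubiquinone, held 6.46, 6.11 and 6.55 FPKM with Mettl3 and 3.36 and 3.87 FPKM without it (-0.68 ± 0.07, adjusted p = 0.000283).

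Of 21 complex IV assembly factors 14 rose and 3 fell at 48 h, 6 rose and none fell in the Mettl3 knockouts, and 1 rose and 4 fell in the Nudt21 knockouts, with medians of 0.36, 0.19 and -0.07. The Nudt21 count is at the share of all genes (19% lower). Sco2, a copper chaperone for mt-Co2, held 6.89, 7.04 and 7.84 FPKM at 0 h in wild type, 15.4 and 13.9 in the Mettl3 knockouts (0.92 ± 0.09, adjusted p = 0.000241) and 5.92, 5.65 and 6.03 at 48 h (-0.27 ± 0.08). Coa6, which works with it, rose by 0.74 in the Mettl3 knockouts. Higd1a, a small protein known to bind complex IV, rose from 8.15 to 11.4 FPKM to 69.0 to 80.8 at 48 h (2.84 ± 0.13). Of 13 factors for complexes II, III and V, 7 rose and none fell at 48 h, 6 rose and none fell in the Mettl3 knockouts, and 1 rose and 4 fell in the Nudt21 knockouts, with medians of 0.16, 0.28 and -0.11. The count at 48 h is near the 43.6% of all genes that rose. Uqcc3, needed for the assembly of complex III, held 30.5, 29.7 and 29.97 FPKM with Mettl3 and 68.0 and 45.2 FPKM without it (0.86 ± 0.13).

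Of 18 genes for the replication and transcription of mitochondrial DNA, 9 rose and 7 fell at 48 h, which is near the shares of all genes (43.6% and 34.9%). The RNA polymerase Polrmt held 20.3, 17.7 and 18.1 FPKM at 0 h and 12.9, 12.9 and 13.7 at 48 h (-0.47 ± 0.06), and the initiation factor Tfb2m fell by 0.55. Tfam, which packs mitochondrial DNA and starts its transcription, rose by 0.30, and the elongation factor Tefm by 0.997. Tefm also held 7.18 and 7.05 FPKM in the Mettl3 knockouts against 2.65, 3.52 and 3.57 (0.94 ± 0.13, adjusted p = 0.000849), and the mitochondrial DNA polymerase Polg fell there by 0.51. Over this list 3 rose and 2 fell in the Mettl3 knockouts, and 1 rose and 4 fell in the Nudt21 knockouts, also near the shares of all genes. The list medians were 0.24, 0.06 and -0.19. Dguok, which supplies mitochondrial nucleotides, was 34.2 and 35.0 FPKM in the Nudt21-set wild types and 19.6 and 18.3 in the knockouts (-0.84 ± 0.09).

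Of 20 genes for the processing and stability of mitochondrial RNA 13 rose and 3 fell at 48 h, 4 rose and 1 fell in the Mettl3 knockouts, and 4 fell in the Nudt21 knockouts, with medians of 0.29, 0.09 and -0.14. Both knockout counts are near the shares of all genes (16.8% higher and 19% lower). Lrpprc, which stabilises mitochondrial mRNA, rose by 0.34 at 48 h, and its partner Slirp rose from 1.89 to 2.25 FPKM to 8.23 to 10.2 (1.73 ± 0.12). Of 12 mitochondrial translation factors 8 rose and 1 fell at 48 h, 5 rose and 1 fell in the Mettl3 knockouts and 2 fell in the Nudt21 knockouts, with medians of 0.46, 0.09 and -0.12, and the Nudt21 count is near the share of all genes. Of 12 regulators of nuclear respiratory genes, 5 rose and 6 fell at 48 h, 1 rose in the Mettl3 knockouts, and 3 rose and 2 fell in the Nudt21 knockouts, with medians of -0.00, 0.01 and 0.05. The 5 that rose at 48 h and the 2 that fell in the Nudt21 knockouts are near the shares of all genes (43.6% and 19%). Nrf1 rose at 48 h by 0.42, and the coactivator Ppargc1b went from 5.72, 3.95 and 5.08 FPKM to 2.12, 1.90 and 2.16 (-0.94 ± 0.12), while Ppargc1a did not reach the level for testing. In the Nudt21 knockouts Nrf1 rose by 0.33 and the coactivator Pprc1 went from 31.1 and 28.8 FPKM to 21.3 and 20.6 (-0.49 ± 0.07, adjusted p = 0.00111).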

How the data were processed

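RNA was sequenced paired-end in 12 libraries, per the labels' protocols, and the authors deposited 1 table of FPKM values for 32285 Ensembl genes. The submitters' processing notes name Bowtie and the build mm10. The tool that computed FPKM, the annotation, the selection of RNA and the use of strand are not given in the sources used here. The table holds no counts, so depth is unknown, and no count test and no counting interval were used.

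The 12511 genes that reached 1 FPKM in 2 or more libraries were analysed as log2(FPKM + 1), a pseudocount of 1. Fold changes on this scale understate the change of low genes. A single linear model over the 5 groups, with 7 residual degrees of freedom, was fitted with limma 3.58.1 (R 4.3.3) and moderated with a mean-variance trend, and p-values were adjusted by Benjamini-Hochberg over the 12511 genes, with a threshold of 0.05. It was tested on simulated data. Figures used matplotlib 3.10.9. Positions come from GENCODE M21 and promoters from RefSeq, of which 75 of the 89 nuclear members had windows.

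The members and lists were chosen with earlier results of these data known. Named genes were taken by a rule: the mitochondrial genes, the core subunits, the tissue isoforms, the largest called changes per complex, the most abundant subunits, calls against a complex's direction, and up to 4 called genes per other list. The values of 1 member are not reported here. Further genes named in the text were chosen after their values were seen. Libraries of the same number at 0 h and 48 h deviated together in the wild types of the Mettl3 set (correlations of deviations over genes of 0.261, 0.228 and 0.319), which the labels do not explain. The numbers were taken to pair these samples, from the data. The main fit did not use this pairing, so the values given above are unpaired. The pairing entered only as the replicate block, 1 of the alternative settings.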

Additional observations from a re-analysis of the deposited data

Results flagged for a closer look

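For 12 of the 102 respiratory chain genes the change differed between the Nudt21 and the Mettl3 knockouts in a direct test (limma, adjusted p under 0.05). Over all 12511 genes tested 25.3% were called in this test, a share that the 12 of 102 do not reach. On the log2 scale, as the Nudt21 minus the Mettl3 change, the differences were -0.98 for Ndufaf1, -0.82 for Ndufaf4, -0.79 for Ndufaf2, -0.68 for Ndufaf7, -0.49 for Ndufaf6, -0.63 for Uqcrfs1, -0.58 for Ndufa7, -0.58 for Cox7a2l, -0.43 for Ndufa10, -0.26 for Cox7a2, -0.23 for Sdhd and 0.60 for Ndufb2. Ndufaf1, Ndufaf4, Uqcrfs1 and Ndufa7 kept the call in all alternative settings tried. Sdhd, Cox7a2 and Ndufb2 lost it in 21, 14 and 11 settings, Cox7a2l in 4 (the replicate block among them), Ndufaf7 and Ndufa10 in 3 each, and Ndufaf6 and Ndufaf2 in 1, quantile scaling.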

How the results depend on the processing

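The counts of nuclear subunits, mitochondrial genes and assembly factors at 48 h were within 1.5 times the main value under every alternative tried. No direction of a called member reversed. In the Mettl3 knockouts 20 nuclear subunits rose, 3 when fitted on the groups compared and 5 with library weights (15 to 27 leaving out 1 library each). The 1 that fell became 2 with either sum rescaling or quantile scaling and 0 with the groups compared or library weights. Mitochondrial genes that fell numbered 0 to 11 leaving out 1 library each. In the Nudt21 knockouts the 18 that rose became 11 with no filter, 10 with either sum rescaling, 29 with median-ratio and 11 with quantile scaling (3 to 23 leaving out 1 library each). The 4 that fell became 7 with the same sum and 2 with median-ratio scaling (1 to 5). Mitochondrial genes that rose were 0, but 4 with the groups compared and 5 with library weights (0 to 3), and 2 fell with quantile scaling. The cause was not tested.

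For the difference between the knockouts, 6 nuclear calls were negative, 2 with median-ratio scaling (2 to 11), and 1 was positive, which became 0 with no filter, the same sum, the groups compared and library weights, 8 with median-ratio and 2 with quantile scaling (0 to 3). Mitochondrial positive calls were 1 with median-ratio scaling (0 to 10). Between the wild types of the sets, the 13 lower mitochondrial calls became 7 with no filter (2 to 13), the 30 higher nuclear calls 17 with median-ratio and 14 with quantile scaling (5 to 37), and the 3 lower ones 0 with no filter, no trend or the groups compared, 6 with quantile scaling and 5 with library weights (0 to 4). An alternative that leaves 1 library in a group assumes that it varies like the other groups.

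The replicate block left the counts at 48 h as they were (79 and 1 nuclear, 13 mitochondrial) and the Mettl3 counts within 1.5 times (23 nuclear higher). In the Nudt21 set the numbers correlated at -0.12. Under the block 13 nuclear subunits rose and 2 fell, and with the knockout numbers crossed, chosen after seeing the data, 17 and 2. The positive call of the difference became 0 under either block. No paired analysis was possible between the wild types because their replicate numbers belong to separate sets. The median over all genes at 48 h was -0.11 with quantile scaling against 0.07, and in the Nudt21 knockouts -0.13 with the same sum against -0.05. Depth is unknown, so the counting error of low genes such as Cox4i2 cannot be given.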
